A study of Homo sapiens with 16 samples.

Results

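The peaks of 2 histone acetylation marks were compared within the cisplatin-resistant ovarian cancer cell line A2780cis. All peaks of the A2780cis H3K9ac list and of the A2780cis H3K27ac list on the autosomes were taken, which gave 15058 H3K9ac peaks and 20245 H3K27ac peaks, or 35303 of the 179695 peaks in the 8 peak lists of the series. Peaks of the 2 marks that shared 1 bp or more were merged into a region, and each region was classed as carrying both marks, H3K27ac alone or H3K9ac alone. This gave 22664 regions.

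H3K27ac and H3K9ac are acetylated forms of lysines in the tail of histone H3. Both are placed by histone acetyltransferases and removed by histone deacetylases, and both mark active chromatin. H3K27ac is found at active promoters and at active enhancers, and H3K9ac is best known from active promoters and is also found at active enhancers. The comparison asks how far the second mark follows the first in resistant cells.

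A2780 is a cell line from an endometrioid ovarian adenocarcinoma, and A2780cis is its resistant derivative, which was labelled as cisplatin treated and was grown with cisplatin in the medium. For each mark 1 library was made from A2780cis by chromatin immunoprecipitation of mononucleosomes released with micrococcal nuclease, with mononucleosomes of D. melanogaster added as a spike-in. The other 6 lists were used here only for comparison. They were H3K9ac and H3K27ac in untreated A2780, and H3K27ac in A2780 with the MBD3 hairpins shMBD3.26 and shMBD3.232. The rest were H3K27ac in CAOV4 and in its cisplatin-resistant derivative CAOV4cis, which according to the paper was also grown with cisplatin in the medium. The paper describes the hairpin cells as drug selected, induced with doxycycline and sorted for GFP. The peak lists carry positions without peak heights, and the number of reads under a peak is unknown, so a missing peak says only that none was called. There was 1 library per line and mark and no replicate, so no difference was tested. The 95% intervals given are Wilson intervals for shares and binomial intervals for medians. They cover counting error over peaks or regions only, and neighbouring peaks of 1 library are not independent.

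The H3K27ac peaks of A2780cis covered 91.5 Mb with a median width of 2800 bp, and the H3K9ac peaks covered 53.6 Mb with a median width of 2600 bp. All boundaries lay on a 200 bp grid, and peaks of 1 list were at least 1000 bp apart. Peaks were listed on chromosomes 1 to 19. Chromosomes 20 to 22 were not analysed here, nor were stretches near the ends of chromosomes 1 to 12.

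Most H3K9ac peaks in A2780cis lay on H3K27ac, whereas H3K27ac often occurred without H3K9ac. Both marks were present in 10584 regions, which is 46.7% of all regions (95% interval 46.1% to 47.3%). H3K27ac alone was present in 9418 regions, or 41.6% (40.9% to 42.2%). H3K9ac alone was present in 2662 regions, or 11.7% (11.3% to 12.2%). Counted by peaks, 12396 H3K9ac peaks, which is 82.3% (81.7% to 82.9%), shared at least 1 bp with an H3K27ac peak, and 10827 H3K27ac peaks, which is 53.5% (52.8% to 54.2%), shared at least 1 bp with an H3K9ac peak.

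The classes differed in width. Regions with both marks had a median width of 5000 bp, regions with H3K27ac alone 1400 bp and regions with H3K9ac alone 600 bp. The widest region of each class spanned 154 kb, 23.2 kb and 6 kb in the same order. Of the regions with H3K9ac alone, 31.6% were 200 bp wide, the smallest width in the list, compared with 7.66% of the regions with H3K27ac alone. A merged region can only be as wide as or wider than its peaks, so the width of regions with both marks is in part set by the merging. The same order held for single peaks. H3K27ac peaks with H3K9ac had a median width of 4600 bp and those without it 1400 bp, and H3K9ac peaks with H3K27ac had a median width of 3200 bp and those without it 600 bp.

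**Figure D1:**
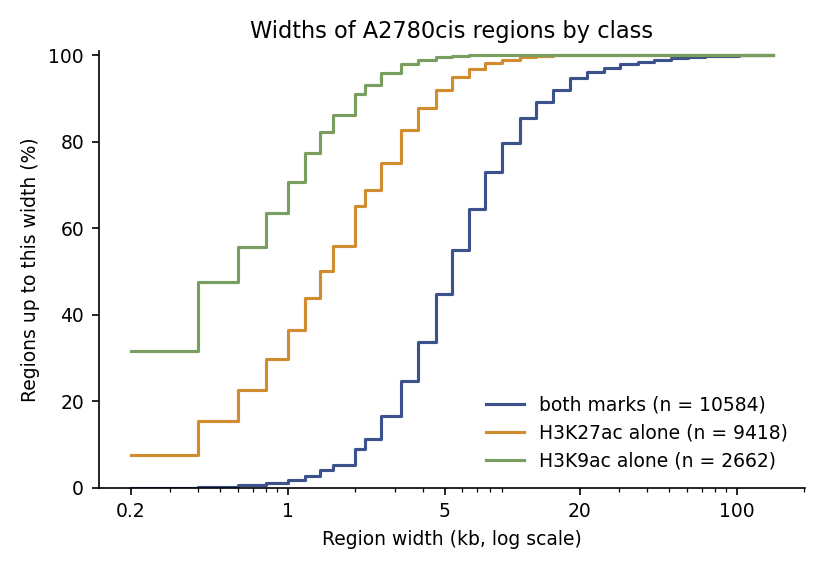
Cumulative share of A2780cis regions (%, vertical axis) up to each width (kb, log scale, horizontal axis) for regions with both marks, H3K27ac alone and H3K9ac alone. The curve of H3K9ac alone starts at 31.6% at 0.2 kb and reaches 91.1% at 2 kb, whereas that of both marks stands at 9.004% at 2 kb.

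In base pairs the 2 marks shared 46.6 Mb. This was 87.1% of the length covered by H3K9ac, 51.0% of the length covered by H3K27ac and 47.4% of the length covered by either mark. H3K27ac without H3K9ac covered 44.9 Mb and H3K9ac without H3K27ac 6.93 Mb. Regions with both marks held 95.6% of all H3K9ac length and 79.1% of all H3K27ac length, so H3K9ac alone made up 11.7% of the regions but 4.36% of the H3K9ac length.

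Where the marks met, H3K9ac usually lay inside H3K27ac. Of the 12396 overlapping H3K9ac peaks, 7755 (62.6%, 95% interval 61.7% to 63.4%) were nested, boundaries included, in a single H3K27ac peak. Of the 10827 overlapping H3K27ac peaks, 1291 (11.9%, 11.3% to 12.55%) were nested in a single H3K9ac peak. The same start and end were listed for both marks in 116 cases, and these count in both directions.

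Regions with both marks were mostly simple. In 9132 of the 10584 regions (86.3%) 1 H3K27ac peak met 1 H3K9ac peak. A further 933 regions (8.82%) held 1 H3K27ac peak with 2 H3K9ac peaks, and 289 (2.73%) held 1 H3K27ac peak with 3 or more. The opposite layout, in which 1 H3K9ac peak joined 2 or more H3K27ac peaks, was seen in 140 regions (1.32%), and 90 regions (0.850%) held 2 or more peaks of each mark. The regions with 3 or more H3K9ac peaks on 1 H3K27ac peak were wide, with a median of 25.6 kb, and held 13.7% of the shared length.

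Among the 9132 regions with 1 peak of each mark, H3K9ac lay inside H3K27ac in 5167 (56.6%), the peaks were staggered in 2807 (30.7%), H3K27ac lay inside H3K9ac in 1042 (11.4%) and the boundaries were the same in 116 (1.27%). Nested H3K9ac peaks showed no clear preference for the low-coordinate or the high-coordinate side. H3K27ac extended beyond them by a median of 800 bp on the low-coordinate side and 800 bp on the high-coordinate side. The low-coordinate margin was the larger in 2454 of these regions, the high-coordinate margin in 2347 and neither in 366. Genes lie on both strands and no strand was used, so these counts cannot show a side relative to transcription. In staggered pairs the H3K9ac peak overhung by a median of 600 bp and the H3K27ac peak by 800 bp. The centres of the 2 peaks were a median of 500 bp apart, and 75.4% of the pairs had centres within 1 kb of each other.

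Scaled to a common length, H3K27ac peaks that overlapped H3K9ac carried it mainly in their interior. For overlapping H3K27ac peaks over 2 to 5 kb wide (n = 4588), 85.5% were covered by H3K9ac at the centre and 39.5% in the outermost bins, each of which is 1 of 20 bins across the peak. For peaks over 5 to 10 kb (n = 3082) these values were 77.4% and 29.5%, and for peaks over 10 to 20 kb (n = 1165) they were 69.5% and 28.6%. Peaks over 20 kb (n = 444) had 76.6% at the centre and 36.7% at the edge. The fall towards the boundary was thus seen in each of the 4 width bins. Only overlapping peaks were used, and a shorter peak inside a longer one covers the centre more readily than the edges. How far this alone set the fall was not tested.

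**Figure D2:**
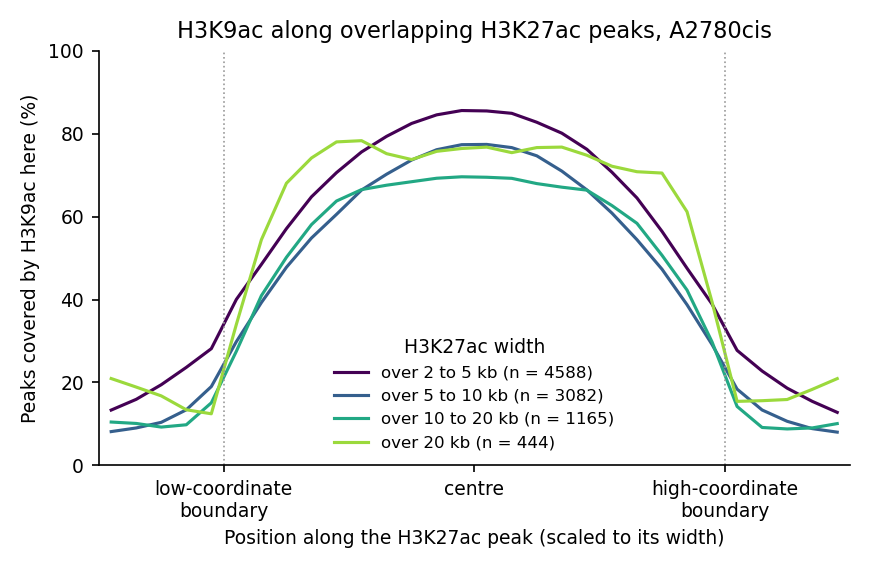
Share of overlapping A2780cis H3K27ac peaks (%, vertical axis) covered by an H3K9ac peak at each position along the H3K27ac peak, scaled to its width and extended a little on each side (horizontal axis), for 4 widths of the H3K27ac peak. Dotted lines mark the H3K27ac boundaries. Coverage is highest in the interior and falls towards both boundaries, for example from 85.5% to 39.5% for peaks over 2 to 5 kb.

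H3K9ac covered less sequence than H3K27ac in most regions with both marks. The ratio of H3K9ac to H3K27ac covered length per region had a median of 0.727 (95% interval 0.717 to 0.732), with quartiles at 0.5 and 0.966. The ratio was below 1 in 8024 regions (75.8%), equal to 1 in 441 (4.17%) and above 1 in 2119 (20.02%). H3K9ac covered more than 2 times the length of H3K27ac in 216 regions (2.04%). Across region widths the median ratio stayed below 1. It was 0.75 in regions up to 1 kb, 0.75 over 1 to 2 kb, 0.786 over 2 to 5 kb, 0.68 over 5 to 10 kb, 0.633 over 10 to 20 kb and 0.743 over 20 kb. H3K9ac was the longer mark in 20.5%, 21.6%, 25.6%, 19.2%, 8.01% and 4.64% of the regions in the same 6 bins, with the lowest shares in the 2 widest.

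The share of peaks that met the other mark rose with the width of the peak. Of H3K27ac peaks up to 1 kb wide, 11.0% (10.01% to 11.98%) overlapped H3K9ac. The share was 29.5% over 1 to 2 kb, 63.2% over 2 to 5 kb, 84.4% over 5 to 10 kb, 95.8% over 10 to 20 kb and 99.6% over 20 kb. Of H3K9ac peaks up to 1 kb wide, 43.6% (41.9% to 45.2%) overlapped H3K27ac, and the share was 80.5% over 1 to 2 kb, 96.2% over 2 to 5 kb and 99.7% over 5 to 10 kb. All 455 H3K9ac peaks over 10 to 20 kb and all 169 over 20 kb overlapped H3K27ac. A wider peak offers more bases to overlap, and how far this alone raised the share was not tested. In each width bin, H3K9ac peaks met H3K27ac more often than the reverse.

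**Figure D3:**
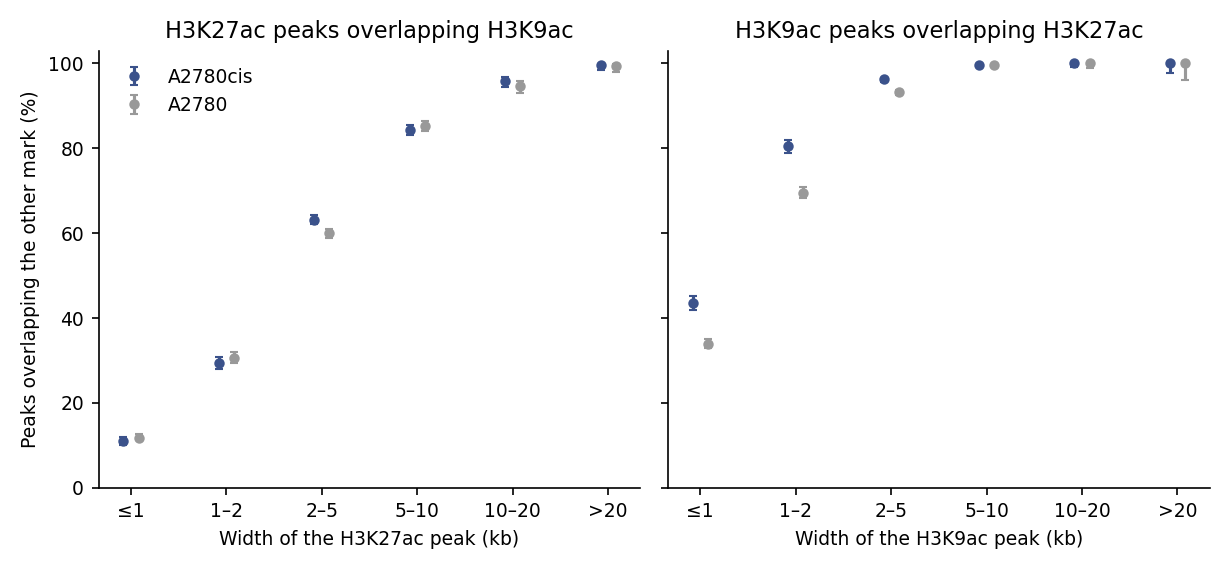
Share of H3K27ac peaks that overlap H3K9ac (left) and of H3K9ac peaks that overlap H3K27ac (right), in %, by the width of the peak in kb, for A2780cis and A2780. Points are shares and bars are 95% Wilson intervals, 1 library per line and mark. In A2780cis the share of H3K27ac peaks rises from 11.0% to 99.6% with width, and narrow H3K9ac peaks overlap more often in A2780cis (43.6%) than in A2780 (33.9%).

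Broad H3K27ac peaks carried H3K9ac as a few separate islands or as 1 block. Of 1662 H3K27ac peaks over 10 kb, 53 had no H3K9ac peak, 747 had 1, 826 had 2 to 4 and 36 had 5 or more, with 8 as the highest number. The median share of such a peak covered by H3K9ac was 62.1%. Of the 446 peaks over 20 kb, 2 had no H3K9ac and the median covered share was 72.9%. Neighbouring H3K9ac peaks on 1 H3K27ac peak were separated by a median of 1400 bp, and 26.4% of these gaps were 1000 bp, the smallest distance the list holds.

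The widest regions show these layouts. They were chosen by width alone, leaving out chromosome 8, and their positions are in GRCh37 (hg19). No gene annotation of that build was used here, so no gene is assigned to them. The widest region with both marks, chr7:130555001-130709000, consisted of 1 H3K27ac peak of 154 kb with 5 H3K9ac peaks that covered 133.4 kb of it. At chr2:172855001-172979800, 1 H3K27ac peak and 3 H3K9ac peaks shared 120.0 kb of 124.8 kb. At chr1:172285601-172406400 a single H3K9ac peak of 119.8 kb joined 2 H3K27ac peaks and shared 118.6 kb of their 119.6 kb. At chr10:54353801-54469800 7 H3K9ac peaks covered 85.6 kb of an H3K27ac peak of 116 kb. These 4 regions had peaks in all 6 other lists. The fifth, chr11:41380001-41489400, carried 108.4 kb of H3K27ac and 95.6 kb of H3K9ac and had a peak in 0 of the 6 other lists.

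The 5 widest regions with H3K27ac alone were 16.2 to 23.2 kb wide. The widest, chr3:116993801-117017000, had no peak in any other list, as was also the case for chr1:103538201-103560200 (22 kb) and chr3:87997401-88013600 (16.2 kb). The region chr18:18934401-18952600 differed from these. It held 18.2 kb of H3K27ac without H3K9ac in A2780cis, whereas the A2780 lists covered 17 kb of it with H3K27ac and 15.4 kb with H3K9ac.

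The 5 widest regions with H3K9ac alone were 5.4 to 6 kb wide. At chr1:150506401-150512400, a region of 6 kb, all 6 other lists had a peak, and the A2780 H3K27ac list covered all 6 kb of it. At chr17:21302001-21308000 the A2780 H3K27ac list covered 4.8 kb. At chr7:40383001-40388600 no other list had a peak. Wide regions with H3K9ac alone thus included sites where H3K27ac was listed in the sensitive parent line and sites without any other peak.

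Regions over 10 kb with both marks also included extremes of the ratio. In the 5 with the lowest ratios H3K9ac covered 0.2 to 0.6 kb of 12.2 to 23 kb of H3K27ac, the lowest being chr19:649001-667200 with 0.2 kb of 18.2 kb, a ratio of 0.011. These regions count as carrying both marks on the strength of 1 or 2 narrow H3K9ac peaks. The highest ratio was 2.39 at chr3:52901201-52912200, where an H3K9ac peak of 11 kb held an H3K27ac peak of 4.6 kb. The next, chr14:100655601-100666600, had a ratio of 2.12.

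Few regions lay at the limit of the class rule. In 195 regions with both marks the shared length was 200 bp, a single step of the grid. At the other side of the limit, 50 regions with H3K27ac alone and 51 with H3K9ac alone touched a peak of the other mark without sharing a base. The median shared length was 3000 bp.

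For H3K27ac alone the nearest H3K9ac peak was a median of 15.4 kb away, and 23.3% had a peak within 5 kb. For H3K9ac alone the nearest H3K27ac peak was a median of 6.6 kb away, and 43.2% (41.4% to 45.1%) had a peak within 5 kb. The quartiles of the distance were 5600 and 49950 bp for H3K27ac alone and 2400 and 21800 bp for H3K9ac alone. The H3K27ac list is the longer one, and the part of list length in this difference was not tested.

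The classes also differed in how often other libraries had a peak at the same place, a measure the class rule did not use. An H3K27ac peak of A2780 was found at 91.2% of the regions with both marks, at 51.2% of those with H3K27ac alone and at 22.4% of those with H3K9ac alone. With shMBD3.26 the shares were 88.6%, 41.9% and 13.3%, and with shMBD3.232 they were 85.4%, 38.1% and 12.998%. In CAOV4, another ovarian cancer line, they were 66.6%, 24.8% and 12.02%, and in CAOV4cis 66.4%, 26.1% and 14.3%. H3K9ac peaks of A2780 were found at 76.8%, 22.9% and 15.3%. With an overlap of 1 bp or more, the order of the 3 classes was the same in all 6 lists. When a peak within 5 kb was also counted, the order held in the 5 H3K27ac lists but not for H3K9ac of A2780, where the shares were 81.6% for both marks, 42.3% (41.3% to 43.3%) for H3K27ac alone and 43.9% (42.04% to 45.8%) for H3K9ac alone.

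**Figure D4:**
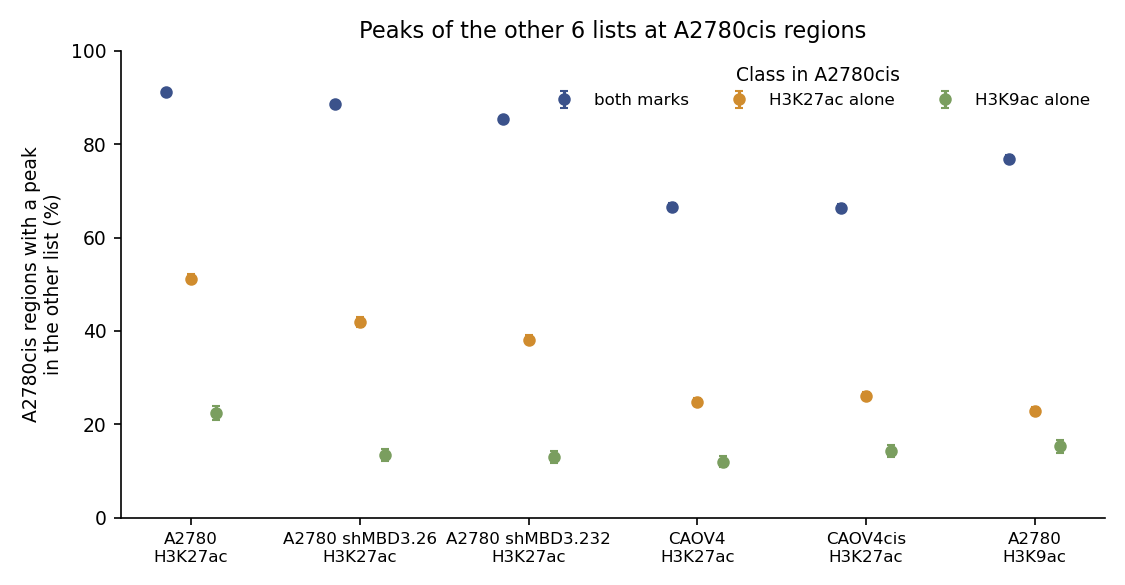
Share of A2780cis regions (%, vertical axis) with a peak in each of the other 6 lists (horizontal axis), for regions with both marks, H3K27ac alone and H3K9ac alone in A2780cis. Points are shares and bars are 95% Wilson intervals, most of them smaller than the point. Regions with both marks lie highest in every list, at 66.4% to 91.2%, and regions with H3K9ac alone lowest, at 12.02% to 22.4%.

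Width moved with these shares, since wide regions overlap more peaks. The order of the classes was therefore read within widths. For regions over 2 to 5 kb, an A2780 H3K27ac peak was found at 91.7% of those with both marks, 66.2% of those with H3K27ac alone and 45.5% of those with H3K9ac alone. For regions up to 1 kb the shares were 56.8%, 32.3% and 17.5%. For H3K9ac peaks of A2780 the single-mark classes were close within widths. At regions over 2 to 5 kb such a peak was found at 72.1% with both marks, 33.7% with H3K27ac alone and 32.5% with H3K9ac alone, and over 1 to 2 kb at 43.2%, 21.4% and 22.5%. Over all widths and summed over the 6 lists, 49.8% of the regions with both marks had a peak in all 6. The shares were 5.69% for H3K27ac alone and 0.413% for H3K9ac alone. A peak in none of the 6 was found for 4.54%, 30.2% and 58.2%. These sums over the lists were not split by width.

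In A2780, the sensitive parent, 75.8% of the A2780cis regions with both marks overlapped peaks of both marks, 15.4% H3K27ac only, 1.03% H3K9ac only and 7.81% neither. Regions with H3K27ac alone overlapped both marks in 19.9%, H3K27ac only in 31.2%, H3K9ac only in 3.02% and neither in 45.8%. Regions with H3K9ac alone overlapped both marks in 8.68%, H3K27ac only in 13.7%, H3K9ac only in 6.61% and neither in 71.0%. These shares are over all widths, and they moved with width. Over 2 kb, neither mark was found at 6.26% of regions with both marks, 29.4% with H3K27ac alone and 43.5% with H3K9ac alone. Up to 2 kb the values were 23.5%, 54.7% and 73.7%. Over all widths, A2780 had H3K27ac at 596 (22.4%) and H3K9ac at 407 (15.3%) of the regions with H3K9ac alone. H3K27ac of A2780 was also the more frequent at regions with both marks (9648 and 8127 regions). The same held at regions with H3K27ac alone (4820 and 2161). The A2780 H3K27ac list is the longer one, with 27932 peaks compared with 22438 for H3K9ac, and the part of list length was not tested.

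The same measures in A2780 gave lower overlap from longer lists. A2780 had 27932 H3K27ac and 22438 H3K9ac peaks on the autosomes, with median widths of 2200 and 1600 bp. Both marks were present in 35.0% of 34989 regions, H3K27ac alone in 43.6% and H3K9ac alone in 21.5%. H3K9ac peaks overlapped H3K27ac in 66.5% (65.9% to 67.1%) and H3K27ac peaks overlapped H3K9ac in 45.4% (44.8% to 46.0%), compared with 82.3% and 53.5% in A2780cis. The shared length was also a smaller part of the whole in A2780, with 78.7% of the H3K9ac length inside H3K27ac and 39.6% of the length covered by either mark, compared with 87.1% and 47.4% in A2780cis. Nesting, the ratio and the centres were closer in value. In A2780 61.1% of the overlapping H3K9ac peaks were nested, the median ratio of covered lengths was 0.704 and the median distance between centres was 500 bp.

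Peak widths moved with the difference between the lines. When the A2780cis shares per width bin were weighted by the widths of the A2780 peaks, the H3K27ac share was 45.8%, next to 45.4% in A2780, and the H3K9ac share was 73.4%, next to 66.5%. When the 15058 widest peaks were taken from each of the 4 lists, the A2780cis share was higher by 3.69 percentage points for H3K27ac peaks and by 2.90 for H3K9ac peaks, compared with 8.07 and 15.8 with all peaks. The difference in the shares of peaks therefore depended on which peaks were counted. The difference in base pairs moved less, with 86.2% of the H3K9ac length inside H3K27ac in A2780cis and 78.3% in A2780 among the widest peaks. With 1 library per line the line and the library cannot be told apart.

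By chromosome, chromosome 13 stood apart from the other 18. Both marks were present in 24.9% of its 313 regions (20.5% to 29.997%), whereas the other chromosomes lay between 43.7% and 51.5%. H3K27ac alone made up 72.8% of its regions and H3K9ac alone 2.24% (7 regions). Chromosome 13 had 33.3 H3K9ac peaks per 100 H3K27ac peaks, compared with 69.8 to 80.7 on the other chromosomes, and H3K9ac covered 31.1% of its H3K27ac length, compared with 43.8% to 56.2%. In contrast, 93.1% of its 102 H3K9ac peaks overlapped H3K27ac. The few H3K9ac peaks there lay on H3K27ac, and most H3K27ac peaks had none.

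**Figure D5:**
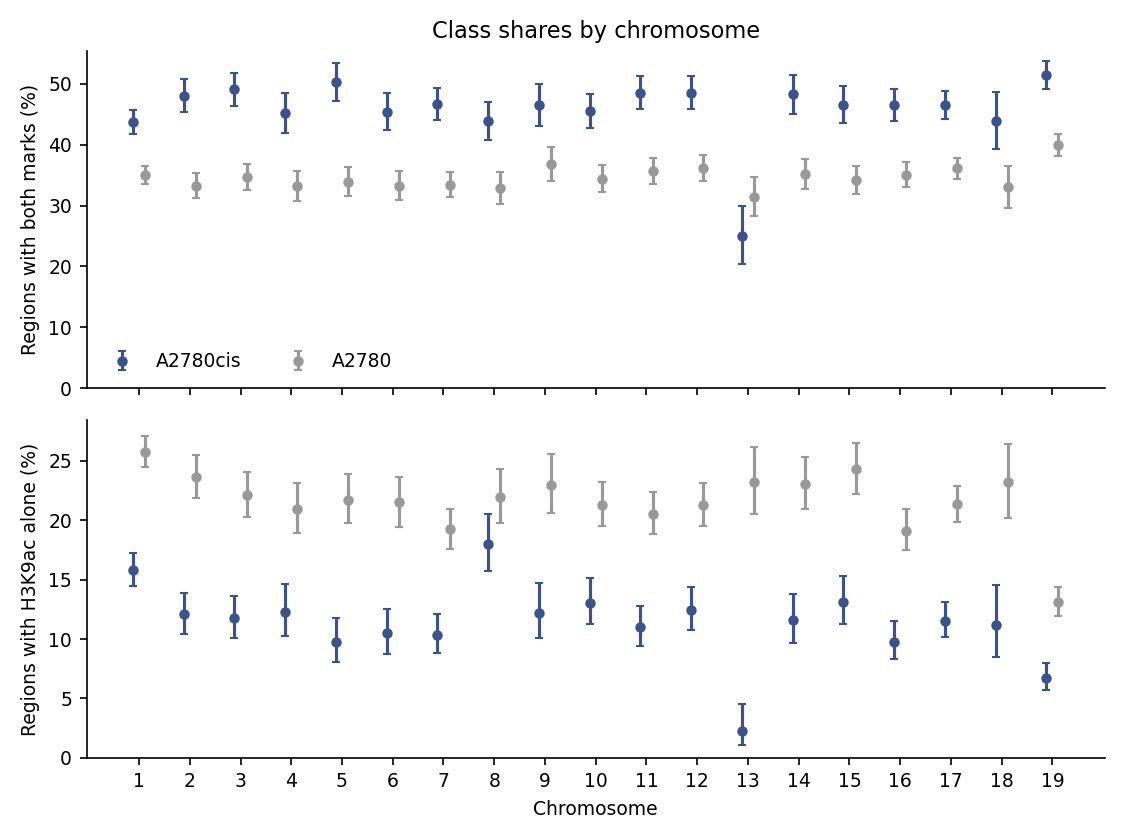
Share of regions with both marks (top) and with H3K9ac alone (bottom), in %, by chromosome, for A2780cis and A2780. Points are shares and bars are 95% Wilson intervals, 1 library per line and mark. Chromosome 13 has the lowest value of A2780cis in both panels (24.9% and 2.24%), and chromosome 8 the highest share of H3K9ac alone in A2780cis (18.0%).

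The low overlap on chromosome 13 was not confined to narrow peaks. Of its H3K27ac peaks over 2 to 5 kb wide, 30.1% (22.9% to 38.3%, n = 133) overlapped H3K9ac, compared with 63.8% on the other autosomes. Over 5 to 10 kb the shares were 50% (33.2% to 66.8%, n = 30) and 84.7%. All 10 of its H3K27ac peaks over 20 kb overlapped H3K9ac. In A2780 the share over 2 to 5 kb was 59.7% on chromosome 13 and 60.02% elsewhere. Over 5 to 10 kb it was 77.6% (67.1% to 85.5%) and 85.4%, and over 10 to 20 kb 100% (n = 19) and 94.5%. Over all widths it was 41.7% (38.0% to 45.5%) on chromosome 13 of A2780 and 45.5% elsewhere. Chromosome 13 also had the lowest share of regions with both marks in A2780, 31.4%, but the next lowest, chromosome 8, was close at 32.8%. All 10 windows of 10 Mb with at least 10 regions on chromosome 13 of A2780cis had both marks in 16.2% to 38.5% of their regions. The median over these windows was 25%. In A2780 the range over 10 such windows was wider, 10.6% to 39.7%, with a median of 32.4%. The number of H3K27ac peaks on chromosome 13 was 306 in A2780cis and 657 in A2780, and that of H3K9ac peaks 102 and 523. The copy number of the chromosome was not measured here, and its part in these values was not tested.

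H3K9ac alone was most frequent on chromosome 8, with 18.0% of the regions (15.7% to 20.5%), and on chromosome 1, with 15.8% (14.5% to 17.3%), and the median over chromosomes was 11.6%. Chromosome 19 had the highest share of both marks (51.5%) and, after chromosome 13, the lowest share of H3K9ac alone (6.75%). Its median ratio of covered lengths, 0.596, was also the lowest after chromosome 13 (0.562), whereas chromosome 8 had the highest (0.827). Chromosome 19 stood out in the same way in A2780. There it had the highest share of both marks (40.0%), the lowest share of H3K9ac alone (13.1%) and the lowest ratio (0.606). On chromosome 8, H3K9ac peaks were thus often found without H3K27ac, and in regions with both marks the H3K9ac length was high relative to the H3K27ac length.

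The share of H3K9ac alone differed along both chromosomes. With a split at 130 Mb, chosen after the values along chromosome 1 were seen, H3K9ac alone made up 11.5% (10.04% to 13.2%) of the regions below it and 22.8% (20.3% to 25.6%) of those above it. In A2780 the shares were 21.3% and 32.9%. On chromosome 8, with a split at 60 Mb chosen in the same way, the shares in A2780cis were 14.0% (11.0% to 17.6%) and 21.2% (17.9% to 24.8%), and in A2780 they were 21.8% and 22.0%. Of the regions with H3K9ac alone in A2780cis, 185 of 410 on chromosome 1 and 60 of 174 on chromosome 8 lay below the split. The step along chromosome 1 was thus found in both lines, and the values for chromosome 8 differed between its sides in A2780cis but were close in A2780.

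In windows of 10 Mb with at least 30 regions (n = 206), both marks were present in 15.6% to 65.6% of the regions, with a median of 46.4% and quartiles at 42.3% and 50%. The lowest window was on chromosome 1 from 90 to 100 Mb, with both marks in 5 of 32 regions. The highest was on chromosome 18 from 50 to 60 Mb, with 21 of 32. The window with the largest share of H3K9ac alone was on chromosome 1 from 180 to 190 Mb, with 27 of 90 regions. That window was also high in A2780, with 82 of 206 regions. Over the 232 windows of A2780, both marks were present in 10.6% to 52.8% of the regions.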

How the data were processed

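The authors prepared mononucleosomes, immunoprecipitated H3K9ac or H3K27ac, sequenced paired ends and, in Galaxy, used Bowtie2 for alignment to GRCh37 (hg19), a custom R script for quantile normalization and MACS2 for peak calling. Versions and peak-calling settings were not given in the sources used here. The deposited files are 1 peak list per library with a score column that the authors left at 0, so only chromosome, start and end were used. Input libraries were not used here. A label gives A2780cis its parent's line name, and the sample titles were followed.

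Overlaps (minimum 1 bp), nesting, covered lengths, 10 Mb windows and distances were computed in Python 3.11.15 (SciPy 1.17.1, pandas 2.3.3, numpy 2.4.6; figures in matplotlib 3.10.9), after the classing was tested on simulated lists with known answers. Regions were named as the 5 widest per class and the 5 lowest and highest ratios over 10 kb, off chromosome 8. The comparison, lists and settings were chosen with earlier results of these data known. The planned gene-start, gene-list and marker descriptions were not run, because the reference tables were of GRCh38. Alternatives were other overlap rules, width limits, list sizes and sets of chromosomes.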

Additional observations from a re-analysis of the deposited data

Results flagged for a closer look

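Chromosome X was left out of the comparison and was looked at separately. In A2780cis it held 221 regions with both marks, which is a signal outside the autosomes that the comparison does not use. These were 33.2% (95% Wilson interval 29.8% to 36.9%) of its 665 regions, next to 46.7% on the autosomes. H3K27ac alone made up 61.1% and H3K9ac alone 5.71%. Of the 630 H3K27ac peaks on chromosome X, 35.6% overlapped H3K9ac, and of the 294 H3K9ac peaks 87.1% overlapped H3K27ac. In A2780 both marks were present in 24.8% of 797 regions of chromosome X.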

How the results depend on the processing

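The depth behind a peak is unknown and there was 1 library per line and mark, so the limits of a missing peak cannot be given. No paired analysis was possible because each group holds 1 library and the result comes from no test. The counts of regions are given as both marks, H3K27ac alone and H3K9ac alone. The direction of the comparisons between the marks held under all the alternatives below. H3K9ac peaks overlapped H3K27ac more often than the reverse, and the median ratio of covered lengths was below 1. The H3K27ac list is the longer one, and the part of list length in the lower H3K27ac share was not tested. With the 15058 widest H3K27ac peaks, as many as the whole H3K9ac list holds, the shares were closer, at 78.0% and 67.1%. With all peaks they were 82.3% and 53.5%. This setting left out only the narrowest H3K27ac peaks, so number and width changed together.

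Requiring an overlap of 50% of the shorter peak gave 80.9% of H3K9ac and 52.6% of H3K27ac peaks overlapping, 63.7% nested and 86.5% of H3K9ac base pairs shared. Counting peaks up to 1 kb apart as shared gave 84.5%, 55.2% and 60.9% nested. Counting peaks up to 5 kb apart gave 1511 regions with H3K9ac alone, 89.97% and 64.3% overlapping, 57.2% nested and a median ratio of 0.692. With only peaks over 2 kb there were 5086 regions with H3K27ac alone and 603 with H3K9ac alone, 93.3% and 59.5% overlapped, 58.2% were nested, 88.4% of H3K9ac base pairs were shared and the ratio was 0.765. The wider 50% of each list gave 6041, 3977 and 693 regions, 90.8% and 60.7% overlapping, 58.4% nested and a ratio of 0.762. Taking equally many peaks, the widest, from both lists gave 4950 regions with H3K27ac alone, 78.0% and 67.1% overlapping, 63.8% nested, 86.2% of base pairs and a ratio of 0.714. Chromosomes 13 to 19 alone gave 3651, 3357 and 772 regions, fewer by construction, with 84.7% and 52.6% overlapping, 66.1% nested, 87.7% of base pairs and a ratio of 0.684. The difference between A2780cis and A2780 fell from 15.8 to 2.90 percentage points for H3K9ac peaks and from 8.07 to 3.69 for H3K27ac peaks when equally many of the widest peaks were taken from all 4 lists. The cause of these shifts was not tested beyond what the settings themselves change.

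Leaving out each of the 19 chromosomes in turn gave 9451 to 10506 regions with both marks, 8368 to 9229 with H3K27ac alone and 2252 to 2655 with H3K9ac alone. The shares ranged from 81.6% to 83.1% of H3K9ac peaks, 53.3% to 53.9% of H3K27ac peaks, 61.5% to 63.4% nested and 86.8% to 87.6% of base pairs, and the ratio from 0.722 to 0.736. Adding chromosome X, or leaving out chromosome 13 (a setting chosen after seeing the data), kept the 3 counts within 1.5 times and the other shares and the ratio within their counting intervals, and the share of H3K9ac base pairs, which has no such interval, was 87.12% and 86.997%. With a peak of another list counted within 5 kb, all 18 shares of regions were higher, and for H3K9ac of A2780 the order of the single-mark classes was lost (42.3% of H3K27ac alone and 43.9% of H3K9ac alone).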
